A study of Mus musculus with 18 samples.

Results

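The Myc-Max network genes described here are 9 protein-coding genes, Myc, Mycn, Mycl, Max, Mxd1, Mxd3, Mxi1, Mnt and Mga. They were chosen by symbol, and all 9 were found among 21859 genes in the authors' deposited gene table. Each also had 1 row among 32253 promoter upstream transcripts (PROMPTs), the short RNAs made upstream of a start site on the opposite strand. Nascent RNA came from E14 mouse embryonic stem (ES) cells grown with LIF and inhibitors of GSK3 and MEK, all of which carried osTIR1, the plant F-box protein through which auxin leads to the degradation of AID-tagged proteins. In 2 clones both copies of Supt16, the gene for the FACT subunit SPT16, also carried an auxin-inducible degron and a V5 tag, and untagged cells lacked it. Each of the 3 lines was treated for 24 h with 0.1% ethanol or with 3-IAA, the auxin, which gave 6 groups (Untagged_EtOH, Untagged_3-IAA, SPT16_AID_V5_Clone1_EtOH, SPT16_AID_V5_Clone1_3-IAA, SPT16_AID_V5_Clone2_EtOH and SPT16_AID_V5_Clone2_3-IAA) of 3 libraries, 18 in all. RNA was labelled for 5 min with 4-thiouridine, purified and sequenced (TT-seq). The 3-IAA dose was 500 nM by the sample labels and 500 µM by the study's methods.

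MYC, MYCN and MYCL are transcription factors that bind DNA as heterodimers with MAX, at E-boxes near the promoters of growth and ribosome biogenesis genes. MAX also pairs with MXD1, MXD3, MXI1 and MNT, which recruit the SIN3 corepressor to the same sites, so that the partners of MAX compete for it. MGA is a large MAX partner with a second DNA-binding domain, a T-box, and is a scaffold of the Polycomb complex PRC1.6, which keeps germline genes silent in ES cells. In naive ES cells MYC activity supports proliferation.

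The level given for a gene is the authors' mean normalized count, a single mean over libraries of all conditions, SPT16-depleted ones included. It has no replicate spread, so that no difference between members could be tested and the levels are not those of untreated cells alone. Counts per library were not used here, and neither were the authors' own comparisons, so how the members respond to loss of SPT16 is not reported. The values that a single read in a single library gives were found for 18 libraries in the gene table and spanned 5.34 times, a measure of how unequal the libraries were in depth. The mean over all conditions cannot show the SPT16-depleted cells alone. In it, 7 of 7 ES markers lay at percentile 85.8 or above of 20157 genes with reads. By contrast, 0 of 5 fibroblast, 0 of 3 blood, 0 of 3 trophectoderm, 0 of 3 primitive endoderm and 0 of 3 neural markers reached the median gene. This is without division by length, and per kb of the gene from start to end 1 of the 3 trophectoderm markers lay above it. Of the neural markers, Tubb3 and Neurod1 were listed at 0 as genes, while their PROMPTs had mean normalized counts of 2.09 and 4.39, so that these zeros are not read as silence.

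All 9 genes had reads, where 92.2% of all genes did. Of the 9, 7 lay above the median gene with reads, whose mean normalized count was 421. Mga was highest at 21247 (percentile 98.1), and Max followed at 8701 (percentile 90.8). Mxi1 had a mean normalized count of 7540 (percentile 88.9) and Mnt one of 3112 (percentile 76.0). Mga alone held 46.1% of the summed counts of the 9 genes, though 19.7% of their levels per kb of exon and 16.9% per kb of span. At the other end were Myc, with 284 (percentile 46.1), and Mxd3, with 258 (percentile 45.2), the members below the median gene. The lowest and the highest member thus differed 82.5-fold.

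**Figure D1:**
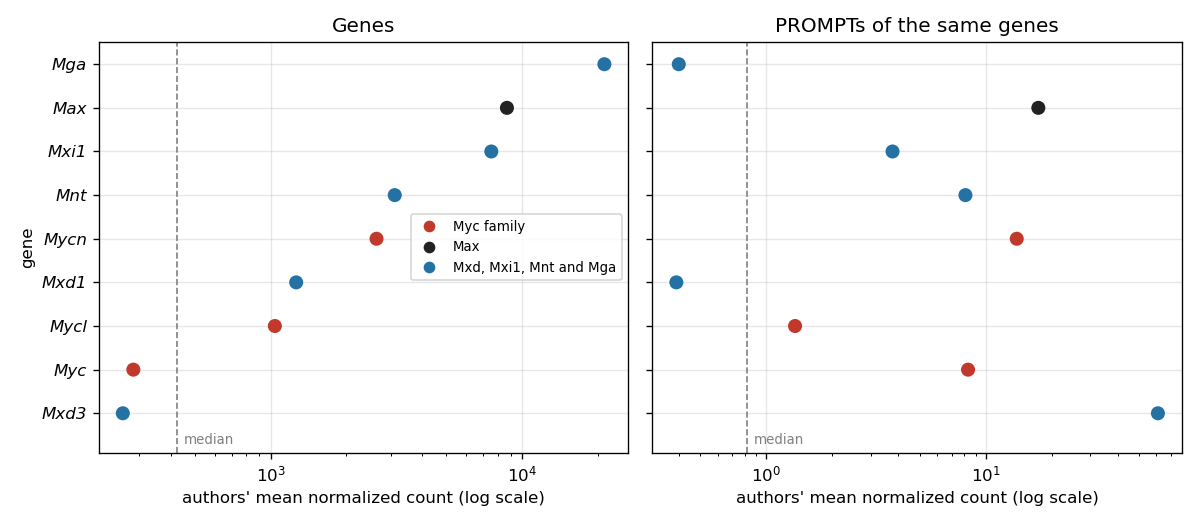
The authors' mean normalized count (log scale) of each of the 9 genes (left) and of its PROMPT (right), 1 point a gene, with the genes in the same order in both panels and dashed lines at the medians of genes and of PROMPTs with reads. Mga is the highest gene at 21247 but has a PROMPT below the median, while Mxd3 is the lowest gene at 258 and has the highest PROMPT of the 9. Points are single means over all libraries, so they have no error bars.

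The genes also differ in length from start to end, from 4.66 kb for Mxd3 to 72.4 kb for Mga. Levels of different genes were therefore compared per kb, on the length of annotated exons and on the whole span from start to end, since the sources used here do not say whether reads in introns were counted. Across 15428 genes with a mean normalized count of at least 10, the count followed exon length among genes of like span with a mean Spearman's rho of 0.245, and span among genes of like exon length with one of 0.109, a description over genes that does not settle it. On both scales the 9 genes lay closer together, with 23.2-fold between the highest and the lowest per kb of exon and 8.18-fold per kb of span. Of the 36 pairs of members, 30 had the same order on both. Among all genes with reads, all 9 lay above the median gene per kb of span and 7 did per kb of exon. These counts per kb were not repeated with weakly transcribed genes left out.

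Among the activators, Mycn had the highest level on either scale. Mycn, on chromosome 12 of GRCm38 from 12936093 to 12941914, encodes N-MYC and is the family member best known from embryonic and neural progenitors. It had 799 normalized counts per kb of exon and 452 per kb of span, the latter at percentile 96.6 of genes and the highest of the 9. Mycl, on chromosome 4 from 122995652 to 123002485, encodes L-MYC and had 257 per kb of exon and 152 per kb of span (percentile 81.0). Myc itself, on chromosome 15 from 61985391 to 61990374, had 104 per kb of exon and 56.9 per kb of span (percentile 61.2). Mycn was thus 7.66-fold above Myc per kb of exon and 7.95-fold per kb of span, and 3.11-fold and 2.98-fold above Mycl. The 3 genes have similar spans of 4.98 to 6.83 kb, so that their order, Mycn over Mycl over Myc, was the same with and without division by length.

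Max, the shared partner, lies on chromosome 12 from 76937269 to 76962201. Its level was the highest of the 9 per kb of exon, at 2418 (percentile 95.3), and the second per kb of span, at 349 (percentile 94.8). Per kb of exon Max was 2.08-fold the 3 Myc family genes summed, while per kb of span it was 0.528 of their sum, so the direction of that comparison turned with the length used. Against its other 5 partners summed, Max was at 0.701 per kb of exon and 0.477 per kb of span, below their sum on both scales. These are levels of newly made RNA and do not give the amounts of the proteins.

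The MAX partners that recruit SIN3 spread widely. Mnt, on chromosome 11 from 74830920 to 74845725, encodes a broadly expressed antagonist of MYC and had 673 per kb of exon and 210 per kb of span (percentile 87.8). Mxi1, also known as Mxd2, lies on chromosome 19 from 53310518 to 53375810 and had 1105 per kb of exon and 115 per kb of span (percentile 74.7). Mxd1, on chromosome 6 from 86647042 to 86669161, belongs to a subfamily known from cells that leave the cycle and had 178 per kb of exon and 57.0 per kb of span (percentile 61.2). Mxd3, on chromosome 13 from 55325168 to 55329823, is known as the subfamily member expressed in dividing cells and had 109 per kb of exon and 55.3 per kb of span (percentile 60.8). Per kb of span, Myc, Mxd1 and Mxd3 lay within 1.03-fold of each other. Mxi1 was above Mxd1 on both scales, but by 6.20-fold per kb of exon and 2.03-fold per kb of span.

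Mga, on chromosome 2 from 119897228 to 119969581, lost its first place once length was divided out. It was second to Max per kb of exon, at 1385 (percentile 88.7), and behind Mycn and Max per kb of span, at 294 (percentile 92.9). Max was above Mga 1.75-fold per kb of exon and 1.19-fold per kb of span.

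**Figure D2:**
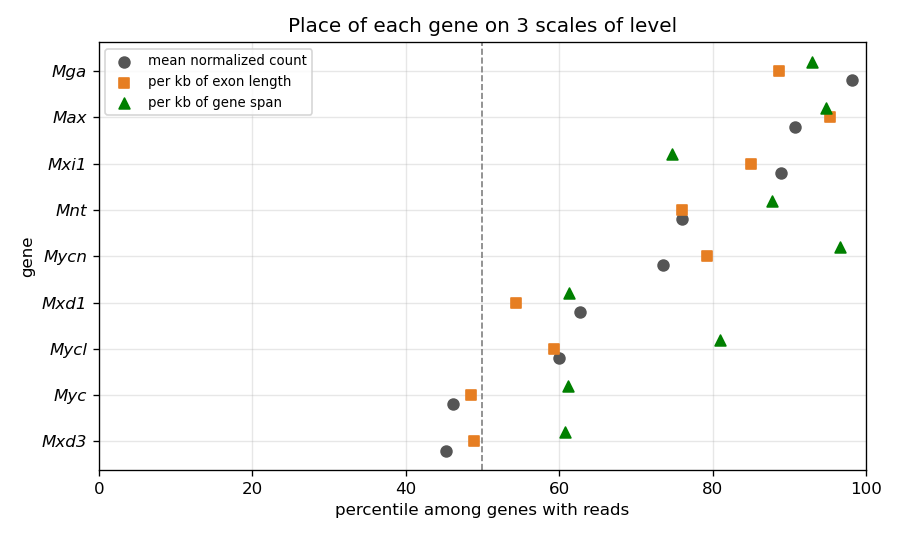
Percentile of each of the 9 genes among genes with reads, by mean normalized count (circles), per kb of exon length (squares) and per kb of gene span (triangles), with a dashed line at the median. Max and Mga stay high on all 3 scales, Mycn moves from percentile 73.6 to 96.6 when its count is divided by span, and Mxi1 moves the other way, from 88.9 to 74.7.

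Genes annotated within the members could have taken or given reads. On the same strand, Gm47218 lies within Max and covers 1319 bases of it, and Gm44292 lies within Mxd1 and covers 2364. On the opposite strand, Prelid1 overlaps the end of Mxd3 by 105 bases, and AC133451.2 and Gm10197 lie within Mxi1 with 5146 and 201 bases. The methods give strand-specific counting, and the part of these genes in the levels was not tested.

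PROMPTs are short-lived transcripts that RNA polymerase II makes in the direction away from the gene, and most are soon degraded by the nuclear exosome. TT-seq reads them because it captures RNA as it is made. Each PROMPT was counted within 1 kb upstream of a start site, so that their levels can be set beside each other without a further division by length. Single-read values were found for 16 libraries in the PROMPT table, and none of the 18 of the gene table was among them. The PROMPT table was thus normalized apart from the gene table, and therefore no ratio of PROMPT to gene was formed. The PROMPTs of all 9 genes had reads, where 82.5% of all genes with reads and a PROMPT row had a PROMPT with reads. Their levels were low in absolute terms, as is the median PROMPT with reads at 0.815, and 3 of the 9 had a mean normalized count of at least 10, where 16.0% of all PROMPTs with reads did.

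Mxd3, the lowest of the 9 genes by mean normalized count and per kb of span and the next to lowest, after Myc, per kb of exon, had the highest PROMPT, with a mean normalized count of 61.0 (percentile 97.2 of 23257 PROMPTs with reads). This was 3.51-fold the next and 53.3% of the summed PROMPT level of the 9. No annotated gene overlaps the 1000 bases upstream of Mxd3, from 55329824 to 55330823, on either strand. The nearest protein-coding gene that starts upstream and runs the other way is Rgs14, 39.9 kb away. Prelid1, which overlaps the end of Mxd3, lies on the strand of this PROMPT and runs toward the window, ending at 55325272. Whether reads past its end reach the window was not tested. Max had a PROMPT of 17.4 (percentile 89.3) and Mycn one of 13.8 (percentile 87.1). Those of Myc, at 8.30 (percentile 82.0), and of Mnt, at 8.08 (percentile 81.7), were nearly equal, although Mnt had the higher level as a gene. Mxi1 had 3.76 (percentile 72.2) and Mycl had 1.35 (percentile 57.7). Mxi1 also has RefSeq starts 18895 and 19177 bases inside the gene as annotated here, so its 1 PROMPT row may not cover all of its starts.

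The PROMPTs of Mga and Mxd1 lay below the median. That of Mga had a mean normalized count of 0.398 (percentile 37.5) and that of Mxd1 one of 0.388 (percentile 37.0). Taken as means over 18 libraries, these come to sums of 7.17 and 6.99 normalized reads. At so few reads their order cannot be read. Of 322 other genes with a PROMPT row and an undivided count at or above that of Mga, 272 (84.5%) had a higher PROMPT. The lowest and the highest PROMPT of the 9 differed 157-fold. Across 16608 genes with reads and a PROMPT row, the level of the PROMPT and that of the gene had a Spearman's rho of 0.564, and of 0.688 with the gene level per kb of span. Across the 9 members the same values were -0.27 and 0.017. These are descriptions over genes that share the same libraries, and genes are not independent replicates. No annotated gene overlaps the upstream window of any of the 9.

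**Figure D3:**
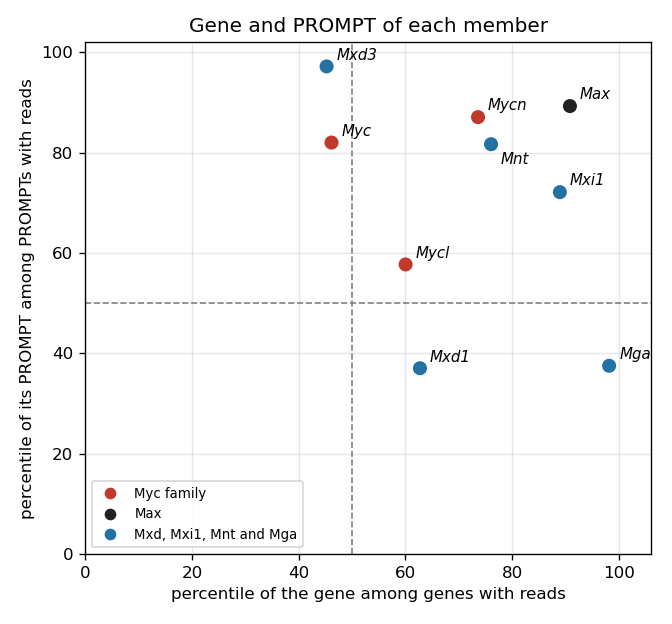
Percentile of the PROMPT of each of the 9 genes among PROMPTs with reads against the percentile of the gene among genes with reads, 1 point a gene, with dashed lines at both medians. Mxd3 and Myc lie at the upper left, with genes below and PROMPTs above the median, and Mga and Mxd1 at the lower right, while the other 5 lie above both medians.

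The promoters are shown for the genes on which these levels turn, Mxd3 and Mga as the highest PROMPT and the highest gene by undivided mean normalized count, Mycn as the highest of the activators and Mnt for its E-box. The sequences are from RefSeq on GRCm38.p6, on the strand of the gene and 5′ to 3′. They end at the last base before the Gencode start. The RefSeq start lies further into the gene, by 92 bases in Mxd3, 78 in Mycn and 4 in Mnt, and is the same in Mga. Motif positions given below are counted from the RefSeq start. Capitals mark an E-box of the form CACGTG in Mnt and GCGGGAA, a core of E2F sites, in Mxd3.
Mxd3, chr13:55329824-55329981, minus strand: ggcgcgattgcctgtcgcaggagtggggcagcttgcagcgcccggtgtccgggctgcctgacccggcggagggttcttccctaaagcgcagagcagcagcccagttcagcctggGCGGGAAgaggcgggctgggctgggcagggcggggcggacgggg
Mga, chr2:119896978-119897227, plus strand: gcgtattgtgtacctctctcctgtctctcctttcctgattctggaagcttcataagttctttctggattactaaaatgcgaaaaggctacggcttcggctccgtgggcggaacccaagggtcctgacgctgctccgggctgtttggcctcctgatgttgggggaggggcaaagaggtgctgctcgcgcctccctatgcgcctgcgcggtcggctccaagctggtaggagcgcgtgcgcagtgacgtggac
Mycn, chr12:12941915-12942086, minus strand: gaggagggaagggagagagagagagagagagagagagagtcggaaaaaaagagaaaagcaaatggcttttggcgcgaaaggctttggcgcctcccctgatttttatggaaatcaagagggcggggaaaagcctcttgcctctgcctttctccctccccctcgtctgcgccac
Mnt, chr11:74830674-74830919, plus strand: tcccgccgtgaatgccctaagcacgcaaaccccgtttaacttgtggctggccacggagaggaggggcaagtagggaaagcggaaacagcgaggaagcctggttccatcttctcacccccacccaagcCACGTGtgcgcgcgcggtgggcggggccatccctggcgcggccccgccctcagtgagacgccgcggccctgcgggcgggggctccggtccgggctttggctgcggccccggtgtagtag

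RefSeq promoter sequences, from 250 bases before to 50 after a start, were at hand for 8 of the 9 genes, 10 in all, of which 3 belong to Mxi1, and Myc had none. In the 250 bases before the start all 10 had a higher observed over expected ratio of CpG dinucleotides than the median promoter, from 0.554 for Mycl upwards, against a median of 0.374 over 32851 promoters. The promoter of Mxd1 was 78.4% GC and that of Mxd3 73.2%, against a median of 52.4%, while that of Mycn was 54.8%. Short motifs were searched on both strands of the 300 bases. The E-box CACGTG was in 2 of the 10 promoters, those of Mnt and Max, and in 7.15% of all promoters. In Mnt it began 123 bases upstream of the RefSeq start. In Max it spanned the start, with 3 bases before it and 3 after, so that it is not wholly among the upstream bases. The looser E-box CANNTG, which includes CACGTG, was in 7 of the 10 promoters, from 6 of the 8 genes, and in 72.3% of all promoters. GCGGGAA was in 1 of the 10 promoters, that of Mxd3, 136 bases upstream of the RefSeq start, and in 4.60% of all. TATAAA was in that of Mycl, 8 bases upstream of the RefSeq start, and in 13.6% of all. The RefSeq start of Mycl lies 279 bases from the Gencode start, so these bases are within the Gencode gene. A match is a run of letters and no evidence of binding.

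All genes of the lists of network partners had reads, where 92.2% of all genes did. In the extended network, in which MLX takes the place of MAX, Mlxip, which encodes the nutrient sensor MondoA, had a mean normalized count of 3614 (percentile 78.2). Mlxipl, which encodes the glucose-responsive factor ChREBP, had 1140 (percentile 61.3), Mlx had 459 (percentile 50.9) and Mxd4, a further MAX partner, had 420, just below the median gene. Levels per kb of span were 93.0 for Mlx and 30.4 for Mxd4, below the 349 of Max and the 55.3 of Mxd3. PROMPTs of 3 of these 4 genes were in the table, with 22.9 for Mlx, 17.9 for Mxd4 and 3.15 for Mlxipl.

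Of 10 genes of the PRC1.6 complex, to which MGA belongs, 9 lay above the median gene, with a median percentile of 83.7 (the exception was Ring1, which encodes a RING-type ubiquitin ligase subunit, at percentile 43.1). Per kb of span, Ring1 lay at percentile 59.9 and all 10 were above the median gene. All 6 genes of the SIN3 corepressor list did, with a median percentile of 90.3. Of 13 cofactors and turnover factors of MYC, such as histone acetyltransferase subunits and ubiquitin ligases, all 13 lay above the median gene (median percentile 85.0). Among 22 known MYC targets, 21 did (median percentile 85.2), and Ccnd2, which encodes cyclin D2, was the one below, at percentile 29.5. The 9 members themselves had a median percentile of 73.6. By the definition of the median, 50% of all genes with reads lie above it. No test was made of how these lists differ from other genes.

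**Figure D4:**
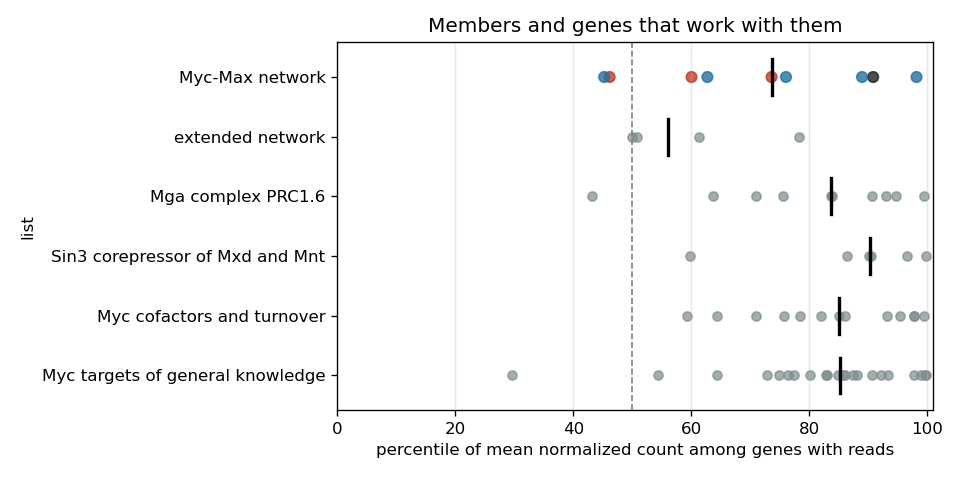
Percentile of the mean normalized count among genes with reads for the 9 members (coloured as the Myc family in red, Max in black and the other partners in blue) and for the genes of 5 lists (grey), 1 point a gene, with a bar at the median of each row and a dashed line at the median gene. The members spread from percentile 45.2 to 98.1, and the medians of the lists lie between 56.1 for the extended network and 90.3 for the SIN3 corepressor.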

How the data were processed

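TT-seq libraries of 18 samples in 6 groups, mapped from their titles, were made by the authors of the study. Per the methods, Trim Galore was used for trimming, STAR for unique alignment to mm10, and featureCounts for strand-specific counting. The readme deposited with the tables names Gencode vM25 as the source of genes and PROMPTs (the submitters' processing notes also list HTSeq). Versions were not given in the sources used here. The signal used here is the baseMean in the deposited tables, counts scaled by the authors with DESeq2 size factors and averaged over all libraries. The other 4 value columns of each table hold the authors' own comparison (log2 fold change, its standard error, p and adjusted p) and were not used. Totals per library were not used, so that depth is known only relatively, from single-read values.

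The percentile is the percent of features with reads that lie strictly below a value. Exon length is the union of annotated exons and the span runs from gene start to end, both in Gencode vM21 on GRCm38, where 99.8% of the genes were found. PROMPT windows of 1000 bases were rebuilt from it. Single-read values were searched up to a baseMean of 0.2 taking values shared by features numbering 0.06 or more of those at the commonest value. That search was run on simulated counts, and the percentiles and the motif search were checked on constructed inputs with known answers. The named genes were the 9 members and the extended network, and Ring1, Ccnd2, Tubb3 and Neurod1, named after their values were seen. The members and lists were chosen with earlier results of these data known. Alternatives were filters on baseMean of 1 and 10, the length used and the promoter window. The tables of eRNAs and DHSs, which number their regions, were left out, and the ratio of PROMPT to gene was not formed. Scripts ran in Python 3.11.15 (pandas 2.3.3, numpy 2.4.6, matplotlib 3.10.9, scipy 1.17.1).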

Additional observations from a re-analysis of the deposited data

How the results depend on the processing

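The share of the Myc family in the summed level of the 9 genes was 8.58% by mean normalized count, 16.5% per kb of exon and 38.0% per kb of span, the last of which was added once the data had been seen, as was the count of members above the median gene per kb of span. Long genes such as Mga weigh more without division by length. The E-box CACGTG was in promoters of 2 genes over 300 bases and of 1 in the 250 bases upstream. With a baseMean of at least 10, 6 members lay above the median gene by undivided count instead of 7, and the counts per kb were not repeated with these filters. With a baseMean of at least 1, 5 PROMPTs lay above the median PROMPT instead of 7. Over every row, 9 PROMPTs did. The percentiles of the members ran from 28.5 to 97.6 when genes under a baseMean of 10 were left out. Each member had 1 PROMPT row, so that summing rows changes nothing. No paired analysis was possible because counts per library were not used here, and for the same reason no replicate was left out and no count model was run. Counting error cannot be given without depth per library.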
